A study of Mus musculus with 15 samples.

Results

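The renin-angiotensin system genes described here are Ren1, Agt, Ace, Agtr1a, Agtr2, Mas1, Enpep, Mme and Atp6ap2, chosen by name, and all 9 were found among 33058 genes with a listed transcript. Total kidney RNA of 15 male C57BL/6 mice (C57BL/6J in the study's methods) was sequenced, with 1 library per mouse and 5 mice per age (3, 12 and 24 months). All mice were on standard chow with no treatment named in the labels, and the groups differ by label only in age. The kidneys were checked against 10 proximal tubule markers, all of which were detected at every age. The study asked how RNA levels in the kidney differ between young (3 months) and old (24 months) mice, and the 12-month-old mice are set beside them here. A gene's value is the summed FPKM of its transcripts, that is, fragments divided by transcript length and by the size of the library. The libraries held 5.03 to 6.13 Gb of aligned bases at 3 months (median 6.04), 5.84 to 8.03 at 12 months (median 7.17) and 6.07 to 7.33 at 24 months (median 6.999). Between 23354 and 24198 genes were above 0 in the young libraries and between 24462 and 25435 in the older ones, without overlap, and the part of this in the comparisons with 3 months was not tested.

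Renin, an aspartyl protease that is released by the granular cells of the juxtaglomerular apparatus, cuts angiotensinogen to angiotensin I, and angiotensin converting enzyme (Ace) trims this to angiotensin II. Angiotensin II raises blood pressure and sodium retention mainly through the type 1 receptor, which in mice is encoded mostly by Agtr1a. The type 2 receptor (Agtr2) and the receptor Mas1, which responds to the shorter angiotensin-(1-7), are generally placed on an opposing arm, and Mme (neprilysin) and Enpep (aminopeptidase A) are membrane peptidases that cut angiotensin peptides. Atp6ap2, the (pro)renin receptor, is also a subunit associated with the vacuolar proton pump. The kidney both makes renin and holds its own angiotensinogen, converting enzyme and receptors.

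The starts of 3 genes that open the pathway are shown because their transcripts carry the comparisons that follow. The sequences are from RefSeq on GRCm38.p6, 30 bases each, written along the gene's strand, with the searched motif in capitals. RefSeq promoter windows of 300 bases (250 before and 50 after the start) were present for 8 of the 9 members, and Agtr1a was not matched.
Ren1 (chr1:133350633-133350662, plus strand): atacatggtgtgTATAAaagaaggctcagg
Agt (chr8:124569719-124569748, minus strand): ccaccccttgagTATAAataagcctgcttg
Ace, somatic start (chr11:105967907-105967936, plus strand): gtggctgggtttTATAAtccgcagggcggt
Ace, germ cell start (chr11:105975126-105975155, plus strand): acattgctctaTGAGGTCAcactgcaggct
The letters TATAA begin 29 bases before the start of Ren1, 30 before that of Agt and 29 before the somatic start of Ace. Searched on the gene's strand between 40 and 16 bases before the start, TATAA was found in 4 of the members' 11 windows, the fourth being Agtr2, and in 3.52% of all 32851 windows. On either strand anywhere in the window it was found in 5 of the members' 11 windows and in 24.9% of all windows. The second start of Ace lies inside the gene and gives the short enzyme form known from male germ cells. Its window holds TGAGGTCA from 52 bases before the start, letters found on either strand in 2.17% of all windows, and no TATAA. For Ren1 the leading deposited transcript begins 164 bases upstream of the RefSeq start, so the sequence shown lies within it. A match of letters is a description and was not tested as a site.

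Over the 15 mice the members lay in 3 tiers of level. Ace (44.7 ± 7.97 FPKM, SD, n = 15), Enpep (40.5 ± 4.47), Ren1 (35.6 ± 43.3), Agt (22.7 ± 6.37), Mme (21.8 ± 2.33), Atp6ap2 (20.04 ± 8.60) and Agtr1a (19.8 ± 3.09) formed the highest. FPKM is per length, so these levels can be set beside each other within a mouse. Mas1 was at 0.538 ± 0.187 FPKM and Agtr2 at 0.0249 ± 0.0241 FPKM, both lower than Agtr1a in 15 of 15 mice. In the exact sign-flip test (2-sided, 15 mice, on log2(FPKM + 1)), Agtr1a against Mas1 and Mas1 against Agtr2 each gave p = 6.1e-05, the smallest value it can give, and Enpep exceeded Ren1 in 13 mice (p = 0.0480). The other neighbours in the order did not differ beyond their spread, with p between 0.117 and 0.827. By mean, Ren1 was the highest of all members at 3 months (73.0 against 48.3 FPKM for Ace). At 12 and 24 months its mean was the lowest of the upper 7 (17.03 and 16.8 FPKM), at 12 months just below Atp6ap2 (17.06 FPKM). By median it lay below Ace at 3 months (44.3 against 44.9 FPKM) and above Atp6ap2 at 24 months (19.7 against 13.0 FPKM). The place of Ren1 within each age was not tested. Benjamini-Hochberg adjusted over the 8 comparisons of neighbours, the steps to Mas1 and to Agtr2 were each at 0.000244 and that of Enpep to Ren1 was at 0.128.

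**Figure D1:**
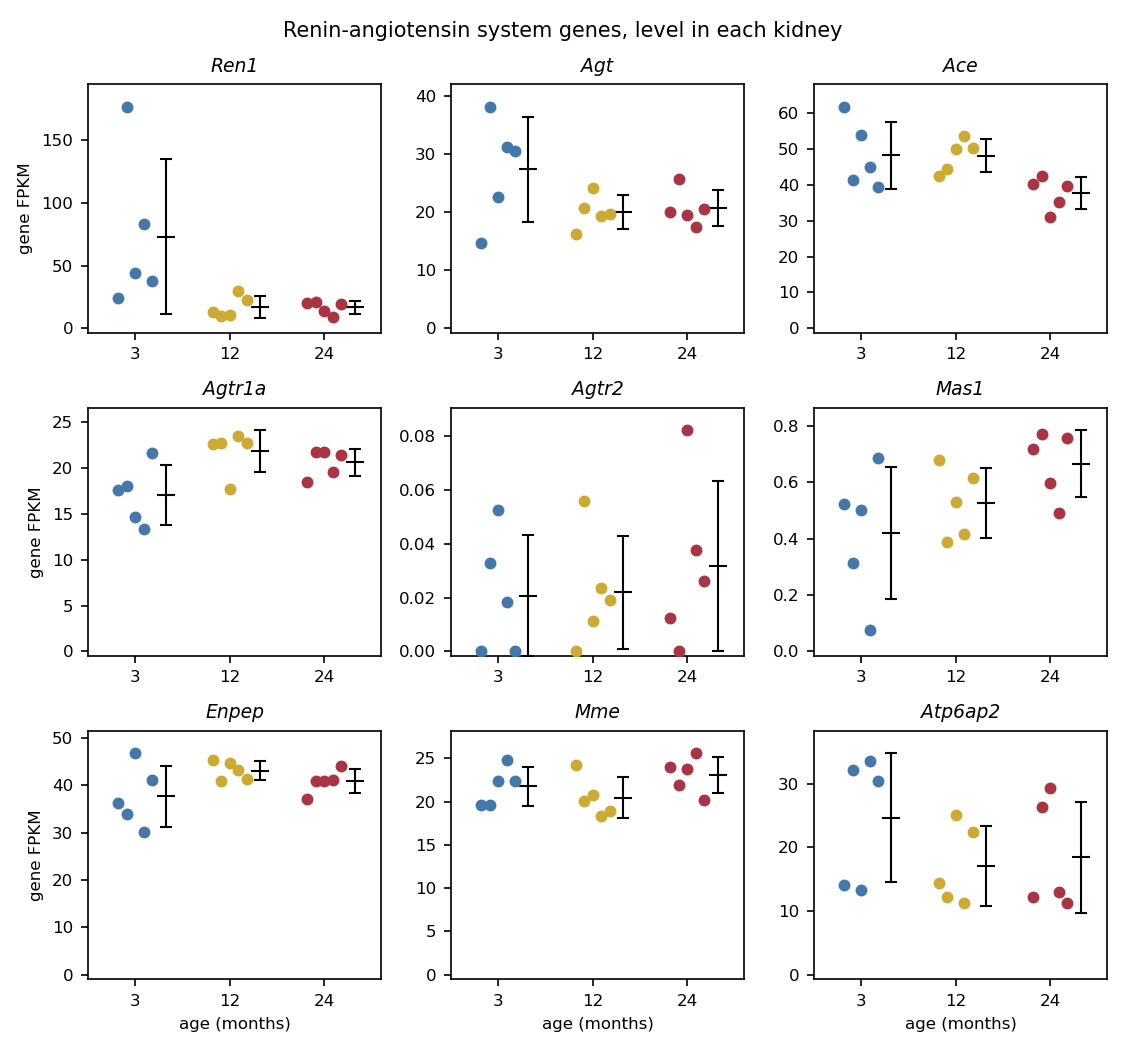
Gene FPKM (vertical axes, linear and starting at 0) of the 9 members against age in months, 1 point per mouse, with the mean and SD of each age as a black bar. Ren1 spans 23.8 to 177 FPKM at 3 months, above the 9.31 to 21.1 of 24 months and overlapping with the 9.77 to 29.4 of 12 months, and Atp6ap2 shows a gap between 14.4 and 22.5 FPKM that is present at every age.

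Renin RNA was highest in the young mice. Ren1 (chr1:133350510-133360325, plus strand, GRCm38) was at 23.8, 177, 44.3, 82.7 and 37.6 FPKM in the 5 mice at 3 months. At 12 months it was at 12.9, 9.77, 10.7, 29.4 and 22.4 FPKM, and at 24 months at 20.3, 21.1, 13.7, 9.31 and 19.7 FPKM. All 5 young mice lay above all 5 old mice, while a 12-month-old mouse at 29.4 FPKM lay above the lowest young mouse. The mean went from 73.0 ± 61.9 (SD, n = 5) to 17.03 ± 8.56 and 16.8 ± 5.12 FPKM, and the medians were 44.3, 12.9 and 19.7 FPKM, a median 2.25-fold higher at 3 than at 24 months. On log2(FPKM + 1), the difference of 24 against 3 months was -1.75 (SE 0.49, 95% interval -2.85 to -0.65), with a limma p of 0.00539 and a Benjamini-Hochberg adjusted p of 0.126 over 31755 genes. The exact permutation test gave p = 0.00794, the smallest that 5 mice against 5 allow. For 12 against 3 months the difference was -1.80 (SE 0.52, limma adjusted p = 0.170, exact permutation p = 0.0159), and for 24 against 12 months it was 0.05 (95% interval -0.70 to 0.79). Ren1 therefore did not pass the adjusted threshold of 0.05 in any comparison. Virtually all of it was the full-length transcript ENSMUST00000094556 (99.8% of the gene's mean FPKM).

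The young mice differed most among themselves in Ren1, with a coefficient of variation of 84.8% against 50.2% at 12 and 30.5% at 24 months. The highest value, 177 FPKM, came from 3-month replicate 6. Without that mouse the log2 difference was -1.35 for 24 against 3 months (limma adjusted p = 0.147) and -1.40 for 12 against 3 months (adjusted p = 0.220). Replicate 6 was also the highest of the 15 mice for Agt, for the collecting duct water channel Aqp2 (134 FPKM) and for 4 of the 5 podocyte markers, among them Nphs1 (7.55 FPKM) and Podxl (45.5 FPKM). On the sum of the 5 podocyte markers, however, its rank from the top was 5 of 15, at 70.4 FPKM. All 4 collecting duct markers of the fixed list were listed, and their summed level ranged from 46.6 to 170 FPKM (median 97.4) at 3 months, 42.3 to 73.7 (median 46.7) at 12 months and 35.4 to 81.9 (median 58.9) at 24 months. Their sum differed between 12 and 3 months (exact permutation p = 0.0317) and not beyond the spread between 24 and 3 months (exact permutation p = 0.0873). The summed level of the 5 podocyte markers was 48.6 to 70.4, 49.8 to 76.6 and 57.1 to 71.9 FPKM, and that of the 7 smooth muscle and pericyte markers 27.9 to 53.8, 38.8 to 60.5 and 35.6 to 74.5 FPKM. The 6 leukocyte markers summed to 9.17 to 19.1, 14.0 to 22.2 and 14.5 to 22.4 FPKM (24 against 3 months exact permutation p = 0.167). With limma 3 of the 6 were higher at 24 than at 3 months at an unadjusted p under 0.05, beside 11.4% of all genes. Of these 3, 1 also passed the adjusted threshold, beside 1.22% of all genes in either direction. Of the 7 smooth muscle and pericyte markers, 2 were higher at each later age than at 3 months at the unadjusted threshold, beside 11.4% of all genes. The part of these markers in the Ren1 values was not tested. In whole tissue RNA, fewer cells of a type and less RNA per cell cannot be told apart.

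The substrate of renin had a smaller difference that did not pass the test with all mice. Agt (chr8:124556534-124569706, minus strand), angiotensinogen, was at 14.6, 38.2, 22.6, 31.3 and 30.6 FPKM at 3 months, between 16.2 and 24.2 FPKM at 12 months and between 17.5 and 25.8 FPKM at 24 months. The lowest and the highest of the 15 values were both from young mice, and the ages overlapped. The log2 difference was -0.33 (95% interval -0.85 to 0.18) for 24 against 3 months and -0.38 (95% interval -0.89 to 0.13) for 12 against 3 months. These values depended on single young mice: without 3-month replicate 5, the lowest, they were -0.53 and -0.58, both past an unadjusted limma p of 0.05 (adjusted p = 0.179 and 0.195), and without replicate 6, the highest, -0.20 and -0.25. Agt was listed as 1 transcript. The 4 markers of liver, the main source of circulating angiotensinogen, summed to 33.5 to 100 FPKM at 3 months, 63.6 to 74.6 at 12 months and 63.1 to 98.6 at 24 months. The highest sum was that of 3-month replicate 6, and the lowest that of 3-month replicate 9, where Agt was at 30.6 FPKM. The part of these markers in the Agt values was not tested.

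Converting enzyme was lowest in the old mice. Ace (chr11:105967893-105990062, plus strand) was at 61.8, 41.4, 53.9, 44.9 and 39.4 FPKM at 3 months, at 42.5, 44.5, 49.9, 53.7 and 50.4 FPKM at 12 months, and at 40.3, 42.3, 31.01, 35.3 and 39.6 FPKM at 24 months. The old mice all lay below the 12-month-old mice, by a margin of 42.3 against 42.5 FPKM, and they overlapped with the young mice. The log2 difference was -0.35 (SE 0.10, 95% interval -0.57 to -0.13) for 24 against 12 months, with limma adjusted p = 0.673 and an exact permutation p of 0.00794. For 24 against 3 months it was -0.34 (SE 0.14, limma adjusted p = 0.289, exact permutation p = 0.0556), and for 12 against 3 months 0.01 (95% interval -0.28 to 0.30). None of these passed the adjusted threshold. With annotated transcripts alone the difference of 24 against 12 months was -0.20 and no longer past an unadjusted p of 0.05. Without 3-month replicate 5, the mouse with the highest Ace, the difference of 24 against 3 months was -0.24. Its unadjusted limma p, under 0.05 with all mice, was above 0.05 without 3-month replicate 5 or 7 or 24-month replicate 33 or 34.

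Of the 6 transcripts listed for Ace, 2 carried nearly all of its FPKM. The annotated somatic transcript ENSMUST00000001963, which begins at the first start shown above, held 69.4% of the gene's mean, and MSTRG.7116.1, assembled from the reads with nearly the same ends, held 29.2%. The split between them varied from mouse to mouse, with the annotated transcript at 31.02% to 85.6% of the gene. Its mean share was 72.1%, 66.3% and 69.8% at 3, 12 and 24 months, and no comparison of shares passed (exact permutation p between 0.675 and 0.865). Neither transcript differed between ages on its own, with log2 differences of -0.36 (95% interval -0.86 to 0.15) and -0.08 (95% interval -0.77 to 0.60) for 24 against 3 months. The part that the assignment of shared reads has in this split was not tested. The germ cell transcript ENSMUST00000001964, whose start holds TGAGGTCA, averaged 0.0680 FPKM over the 15 mice, or 0.152% of the gene.

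The type 1 receptor stood higher in the older mice by a small margin. Agtr1a (chr13:30336441-30382867, plus strand) was at 17.6, 18.01, 14.7, 13.3 and 21.6 FPKM at 3 months, at 22.6, 22.7, 17.8, 23.4 and 22.7 FPKM at 12 months, and at 18.5, 21.8, 21.8, 19.5 and 21.4 FPKM at 24 months. All 5 young mice lay below 4 of the 5 mice at 12 months, and the ages overlapped through the remaining mouse at 17.8 FPKM. The log2 difference was 0.35 (SE 0.13, limma p = 0.0223, adjusted p = 0.261, exact permutation p = 0.0238) for 12 against 3 months and 0.27 (SE 0.12, limma p = 0.0457, adjusted p = 0.322, exact permutation p = 0.0476) for 24 against 3 months. For 12 against 3 months the unadjusted p was above 0.05 with median-of-ratios scaling (log2 difference 0.28), with the F test, and without 3-month replicate 7 (0.30) or 8 (0.27). For 24 against 3 months it was above 0.05 when any 1 of 8 of the 10 mice was left out. Agtr1b, a gene closely related to Agtr1a, averaged 0.0339 FPKM. Whether reads were divided between the related genes was not examined, so this level is uncertain. The full-length transcript ENSMUST00000066412 held a larger share of the gene at 12 months (97.3%) than at 3 months (95.2%), without overlap (exact permutation p = 0.00794), a difference of 2.07 percentage points. Shares were computed for the members alone, so how common such a separation is among all genes is not known.

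The opposing receptors were the members with the lowest levels. Agtr2 (chrX:21484544-21489164, plus strand) was listed at 0 in 4 of 15 mice and reached 0.0824 FPKM at most, and no difference was detected at this level. An FPKM of exactly 0 can be a failed estimate, so it is not read as absence. Mas1 (chr17:12841079-12868143, minus strand) ranged from 0.0750 to 0.686 FPKM at 3 months, from 0.389 to 0.680 at 12 months and from 0.491 to 0.771 at 24 months, with means of 0.420, 0.526 and 0.666 FPKM. The log2 difference of 24 against 3 months was 0.24 (95% interval -0.03 to 0.52, limma adjusted p = 0.396). It was 0.15 without 3-month replicate 8, the lowest mouse, and 0.31 without replicate 9, where it was past an unadjusted p of 0.05 (limma adjusted p = 0.281). With a pseudocount of 0.1 it was 0.71 and with TPM 0.57, neither past the adjusted threshold.

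Mas1 was the member whose leading transcript differed most between ages in its share of the gene. Its full-length transcript ENSMUST00000089015, with 9 exons, was at 0.524, 0.277, 0.449, 0.0750 and 0.634 FPKM at 3 months and at 0.645, 0.707, 0.529, 0.491 and 0.404 FPKM at 24 months. At 12 months it was at 0.127, 0, 0, 0.0537 and 0.0166 FPKM. It made up 88.9% to 100% of the gene at 3 months, 0% to 18.6% at 12 months and 53.4% to 100% at 24 months, so the 12-month-old mice did not overlap with either other age (exact permutation p = 0.00794 in both). As for Agtr1a, how often such shares separate the ages among all genes was not computed. In the 12-month-old mice most of the FPKM was listed on shorter transcripts, and which of them led differed from mouse to mouse: ENSMUST00000162333 in replicate 17, ENSMUST00000159223 in replicates 18 and 20, and ENSMUST00000162119 in replicates 19 and 21. The log2 difference of the full-length transcript was 0.58 (SE 0.09) for 24 against 12 months, with limma adjusted p = 0.449 over all transcripts and an exact permutation p of 0.00794, and -0.41 (SE 0.12, adjusted p = 0.478) for 12 against 3 months. All these levels are under 1 FPKM, where few reads decide between transcripts, and 70.7% of the span of Mas1 overlaps the long non-coding RNA Airn on the other strand.

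**Figure D2:**
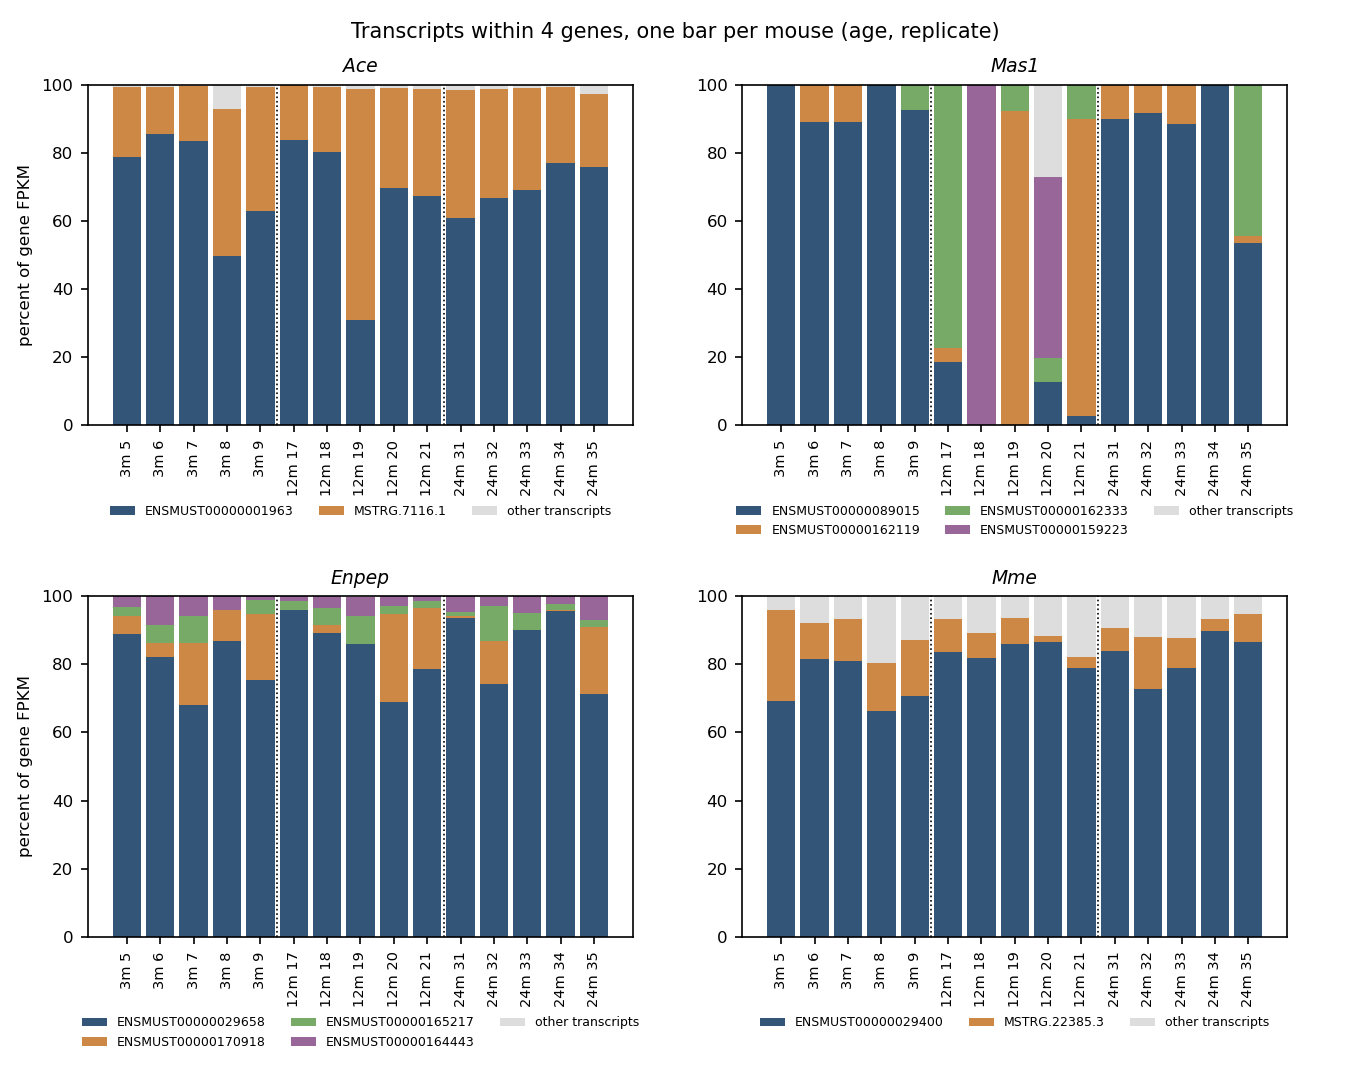
Share of the gene's FPKM (vertical axis, percent) given by each transcript of Ace, Mas1, Enpep and Mme, 1 stacked bar per mouse labelled by age in months and replicate, with dotted lines between ages. The leading transcript of Mas1 (dark) is at 0% to 18.6% in the 12-month-old mice and at 53.4% to 100% in the others, while those of Ace, Enpep and Mme lead in nearly every mouse.

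The membrane peptidases differed little between ages. Enpep (chr3:129269175-129332720, minus strand), which removes the first residue of angiotensin II, ranged from 30.2 to 46.8 FPKM at 3 months, 40.9 to 45.2 at 12 months and 37.1 to 44.1 at 24 months. Its log2 difference was 0.20 (95% interval -0.04 to 0.45) for 12 against 3 months and 0.13 (95% interval -0.12 to 0.38) for 24 against 3 months. Without 3-month replicate 7 the first was 0.28 and past an unadjusted p of 0.05 (limma adjusted p = 0.249). Mme (chr3:63241537-63386578, plus strand) ranged from 19.6 to 24.8, 18.3 to 24.2 and 20.2 to 25.6 FPKM at the 3 ages, with a difference of 0.08 (95% interval -0.11 to 0.28) for 24 against 3 months. All of these intervals lie within 0.5 of 0 on the log2 scale.

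Single transcripts of both peptidase genes varied between mice. Enpep's ENSMUST00000170918 was at 0 in 3 mice and reached 11.2 FPKM in 12-month replicate 20, while the leading transcript ENSMUST00000029658 stayed between 26.2 and 43.3 FPKM and held 82.6% of the gene. For Mme, the assembled transcript MSTRG.22385.3 was at 5.22, 2.08, 2.74, 3.52 and 3.68 FPKM at 3 months, at 2.33, 1.48, 1.59, 0.322 and 0.632 FPKM at 12 months, and at 1.62, 3.36, 2.10, 0.887 and 1.69 FPKM at 24 months. Its log2 difference was -1.01 (SE 0.28, limma adjusted p = 0.474) for 12 against 3 months and -0.62 (SE 0.25, adjusted p = 0.589) for 24 against 3 months. Over the members' transcripts of at least 10% of their gene, limma called 0 at an adjusted p under 0.05 in any comparison, where 0.0192% of all transcripts passed for 24 against 3 months, 0.00481% for 12 against 3 months and 0.00559% for 24 against 12 months. At an unadjusted p under 0.05 there were 2 of 14 for 24 against 3 months (7.9% of all transcripts), 4 of 13 for 12 against 3 months (7.46%) and 1 of 14 for 24 against 12 months (4.47%). The annotated Mme transcript ENSMUST00000029400 held 73.8%, 83.3% and 82.4% of the gene at 3, 12 and 24 months (12 against 3 months exact permutation p = 0.0397), a difference that turned to -3.05 percentage points when assembled transcripts were left out.

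Atp6ap2 lay in separate bands that cut across the ages. Atp6ap2 (chrX:12587801-12617049, plus strand) was at 14.1, 32.1, 13.2, 33.6 and 30.4 FPKM at 3 months, at 14.4, 12.2, 25.0, 11.2 and 22.5 FPKM at 12 months, and at 12.1, 26.4, 29.3, 13.0 and 11.2 FPKM at 24 months. Of the 15 mice, 8 lay between 11.2 and 14.4 FPKM and 7 between 22.5 and 33.6 FPKM, with none between. The upper band held 3, 2 and 2 mice at 3, 12 and 24 months, and the log2 difference of 24 against 3 months was -0.41 (95% interval -1.24 to 0.42). The bands were carried by the leading transcript ENSMUST00000033313, 97.9% of the gene. The part that the assignment of reads to transcripts has in the bands was not tested.

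The deposited circular RNAs included 5 from members, given as estimated counts. How these counts were made is not given, and they may include linear reads of the same exons. Circular RNAs are closed by splicing a later exon end to an earlier exon start. CircRNA8763 of Atp6ap2 (chrX:12594761-12608954, 7 exons) did not show the bands: its estimated counts were 968, 1007, 1053, 1125 and 1148 at 3 months, 1227, 994, 1102, 744 and 995 at 12 months, and 1070, 897, 940, 1151 and 944 at 24 months. Adjusted for library size, its log2 difference was -0.25 for both 24 against 3 months (edgeR adjusted p = 0.0579) and 12 against 3 months (edgeR adjusted p = 0.0876), which DESeq2 put at 0.0170 and 0.0384. CircRNA918 of Mme (chr3:63326714-63329715, 5 exons) had a log2 difference of 0.25 for 24 against 3 months (edgeR adjusted p = 0.0509, DESeq2 0.0270). Enpep hosts circRNA4477, circRNA7920 and circRNA9629, which end at the same position and so share sequence, with differences between 0.09 and 0.20 against 3 months and edgeR adjusted p between 0.307 and 0.648. With edgeR, 0 of these 5 circular RNAs passed in any comparison, where 13.3% of all circular RNAs did for 24 against 3 months, 6.63% for 12 against 3 months and 0.738% for 24 against 12 months. At an unadjusted edgeR p under 0.05 there were 2, 1 and 0 of the 5 in that order, beside 28.8%, 23.7% and 16.9% of all circular RNAs. DESeq2 called 2, 1 and 0 of the 5 at an adjusted p under 0.05, beside 15.8%, 10.3% and 3.51%.

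**Figure D3:**
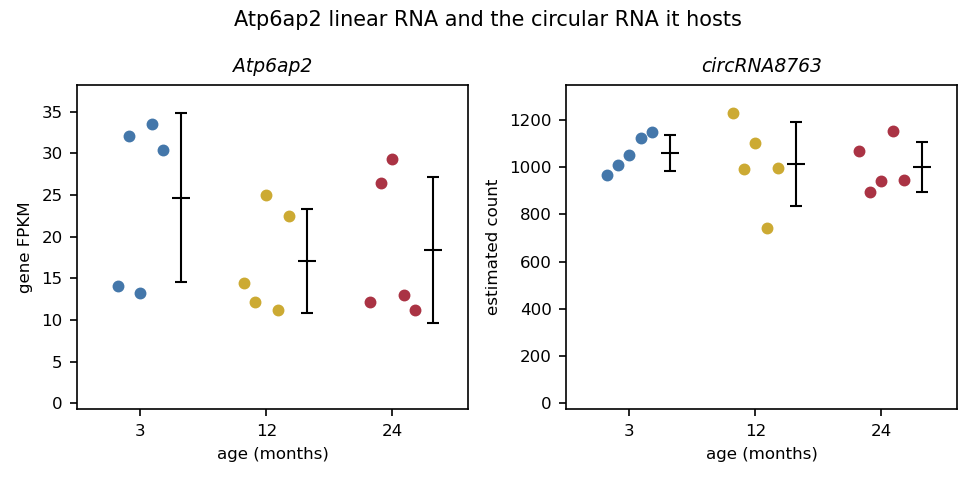
Left, Atp6ap2 gene FPKM, and right, the estimated count of circRNA8763 from the same gene, against age in months, 1 point per mouse with the mean and SD as a black bar and axes starting at 0. The gap between 14.4 and 22.5 FPKM on the left has no counterpart among the counts of 744 to 1227 on the right. These estimated counts may include linear reads of the same exons.

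Counted together, 0 of the 9 members passed an adjusted p under 0.05 in any comparison, where 1.22% of 31755 genes passed for 24 against 3 months, 0.25% of 31637 for 12 against 3 months and 0.0031% of 32282 for 24 against 12 months. At an unadjusted limma p under 0.05 the members past it were Ren1, Ace and Agtr1a (3 of 9) for 24 against 3 months beside 14.9% of all genes, Ren1 and Agtr1a (2 of 9) for 12 against 3 months beside 14.3%, and Ace (1 of 9) for 24 against 12 months beside 6.43%. Lower values in the older mice made up 2 of these 3 at 24 against 3 months, where 3.47% of all genes were lower and 11.4% higher at that threshold. For 12 against 3 months 1 was lower and 1 higher, beside 2.9% and 11.4% of all genes, and for 24 against 12 months 1 was lower and 0 higher, beside 3.36% and 3.07%. When a log2 difference of more than 1 in either direction was asked for as well, Ren1 was the 1 member left at both later ages against 3 months, beside 0.523% and 0.499% of all genes, and 0 members were left for 24 against 12 months (0.17%). Genes near 0 can hardly differ by more than 1 on log2(FPKM + 1), which keeps these shares low. The ages did not overlap for Ren1 between 24 and 3 months (4.73% of all genes) and for Ace between 24 and 12 months (1.07%), and for 0 members between 12 and 3 months (4.11%). The members' median log2 difference was 0.02, 0.00 and 0.04 for 24 against 3, 12 against 3 and 24 against 12 months, beside 0.02, 0.02 and 0.00 over all genes. Over genes with a mean of at least 1 FPKM it was 0.05, 0.08 and -0.03. The comparisons against 3 months share their young mice and are not independent of each other.

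**Figure D4:**
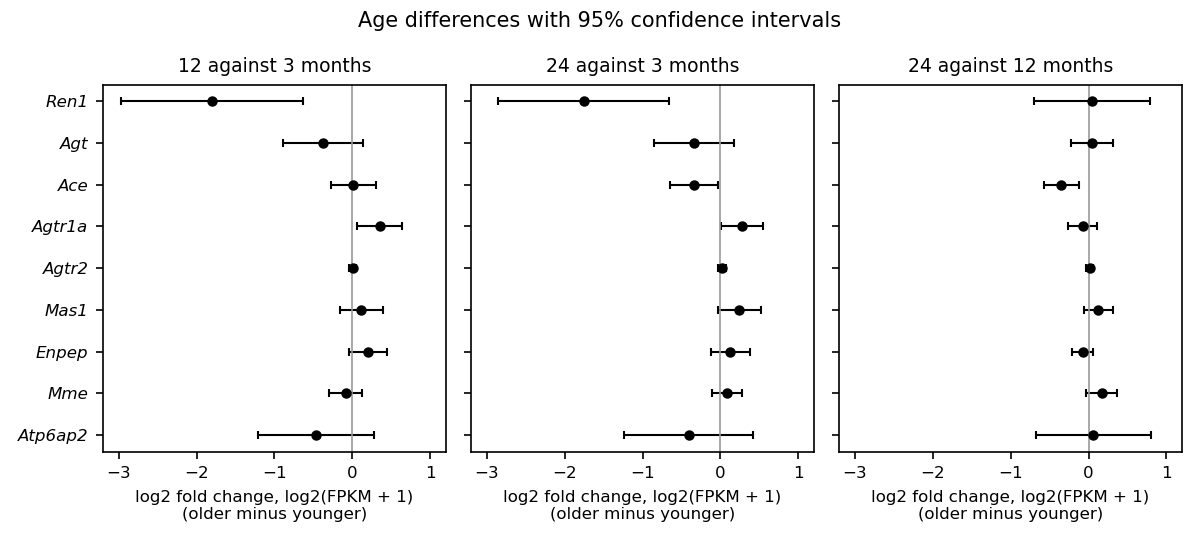
Log2 difference on log2(FPKM + 1), older minus younger, of the 9 members (points) with 95% confidence intervals (bars) in the 3 comparisons of ages. The Ren1 interval lies below 0 against 3 months at both later ages (-2.98 to -0.63 and -2.85 to -0.65) and around 0 between 24 and 12 months.

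Other genes around the pathway were read from a fixed list of 49, of which 47 were tested against 3 months and 48 for 24 against 12 months. With limma 0 of them passed an adjusted p under 0.05 in the main fit of any comparison of 10 mice. With a filter at 1 FPKM, Adrb1 passed for 24 against 3 months (limma adjusted p = 0.0448). With all 15 mice in one fit, Nr3c2 passed for 24 against 3 months (limma adjusted p = 0.0357) and Ptgs2 for 12 against 3 months (limma adjusted p = 0.0385). At an unadjusted p under 0.05, 6 of 47 (12.8%) stood out for 24 against 3 months, 8 of 47 (17.02%) for 12 against 3 months and 5 of 48 (10.4%) for 24 against 12 months, beside the 14.9%, 14.3% and 6.43% of all genes. Of these, 2 were higher and 4 lower at 24 than at 3 months, and 3 were higher and 5 lower at 12 than at 3 months. For 24 against 12 months Ptgs2 and Sgk1 were higher and Thop1, Ctsa and Bdkrb1 lower, of which Thop1 and Ctsa are named after their values were seen. The list's median log2 difference was -0.03, 0.03 and -0.04 in the 3 comparisons in that order. The ages did not overlap for 1 of 47 for 24 against 3 months, beside 4.73% of all genes. They did not overlap for 2 of 47 for 12 against 3 months (4.11%) and for 0 of 48 for 24 against 12 months (1.07%). Of the 15 other angiotensin peptidases on the list, 13 were tested for 24 and 14 for 12 against 3 months, and with limma 0 passed the unadjusted threshold in either. For 24 against 12 months 2 of 14, Thop1 and Ctsa, passed it (14.3%).

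Among the 18 genes of renin release and renin cells, those with the smallest p were Ptgs2 and Adrb1. At an unadjusted limma p under 0.05, 1 of the 18 was higher and 3 lower at 24 than at 3 months (22.2%, beside 14.9% of all genes). For 12 against 3 months 0 were higher and 4 lower (22.2%, beside 14.3%). The median log2 difference of the 18 was -0.06 and 0.04 in that order. Ptgs2, cyclooxygenase-2, which makes prostaglandins that stimulate renin release, was at 0.905 to 2.35 FPKM (median 1.40) at 3 months, 0.0825 to 0.680 FPKM at 12 months and 0.589 to 0.934 FPKM at 24 months. The 12-month-old mice all lay below the young mice, where 4.11% of all genes did not overlap in either direction. The log2 difference of Ptgs2 was -0.88 (SE 0.21, limma adjusted p = 0.109). Adrb1, the beta-1 adrenergic receptor through which sympathetic nerves drive renin release, was listed at 0 in 4 of 5 young mice and at 1.19 FPKM in replicate 7. It was at 1.03 to 2.43 FPKM in all 5 old mice, with a difference of 1.11 (SE 0.25, limma adjusted p = 0.0683), opposite in sign to that of Ren1. At 12 months Adrb1 was listed at 0 in 1 of 5 mice and reached 1.88 FPKM, and here too an exact 0 can be a failed estimate. The part that the smaller number of genes above 0 in the young libraries has in the Adrb1 values was not tested. Akr1b7, an enzyme found in renin cells and singled out after its values were seen, had means of 2.11, 0.638 and 0.620 FPKM at the 3 ages and its highest value in replicate 6, the mouse with the highest Ren1. Its differences against 3 months were -0.80 (SE 0.33, limma adjusted p = 0.299) at 24 and -0.78 (SE 0.33, adjusted p = 0.325) at 12 months.

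On the aldosterone side, Nr3c2, the mineralocorticoid receptor, was at 2.38 to 4.003 FPKM at 3 months, 4.70 to 5.85 at 12 months and 4.56 to 6.87 at 24 months. Neither later age overlapped with the young mice, beside 4.11% of all genes without overlap at 12 and 4.73% at 24 months. The log2 difference of Nr3c2 was 0.55 (SE 0.14, limma adjusted p = 0.0910) for 24 against 3 months and 0.44 (SE 0.12, adjusted p = 0.161) for 12 against 3 months. Sgk1, a kinase induced by aldosterone that raises sodium channel activity, had means of 89.2, 40.7 and 75.5 FPKM at the 3 ages. Its difference was -1.16 (SE 0.31, limma adjusted p = 0.139) for 12 against 3 months and 0.89 (SE 0.33, adjusted p = 0.745) for 24 against 12 months, and the ages overlapped. Bdkrb1, the inducible kinin receptor, had the smallest p for 24 against 12 months (0.00308, adjusted p = 0.611) at no more than 0.189 FPKM in any mouse. The adrenal enzyme genes Cyp11b1, Cyp11b2, Cyp11a1 and Cyp21a1 reached no more than 0.0401 FPKM in any mouse. Star, the cholesterol carrier of steroid synthesis, made up most of the summed level of the 6 adrenal cortex markers, which was 1.18 to 1.79 FPKM at 3 months, 1.99 to 2.63 at 12 months and 2.13 to 3.96 at 24 months (exact permutation p = 0.00794 against 3 months at both later ages). Its part in the values of these genes was not tested.

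**Figure D5:**
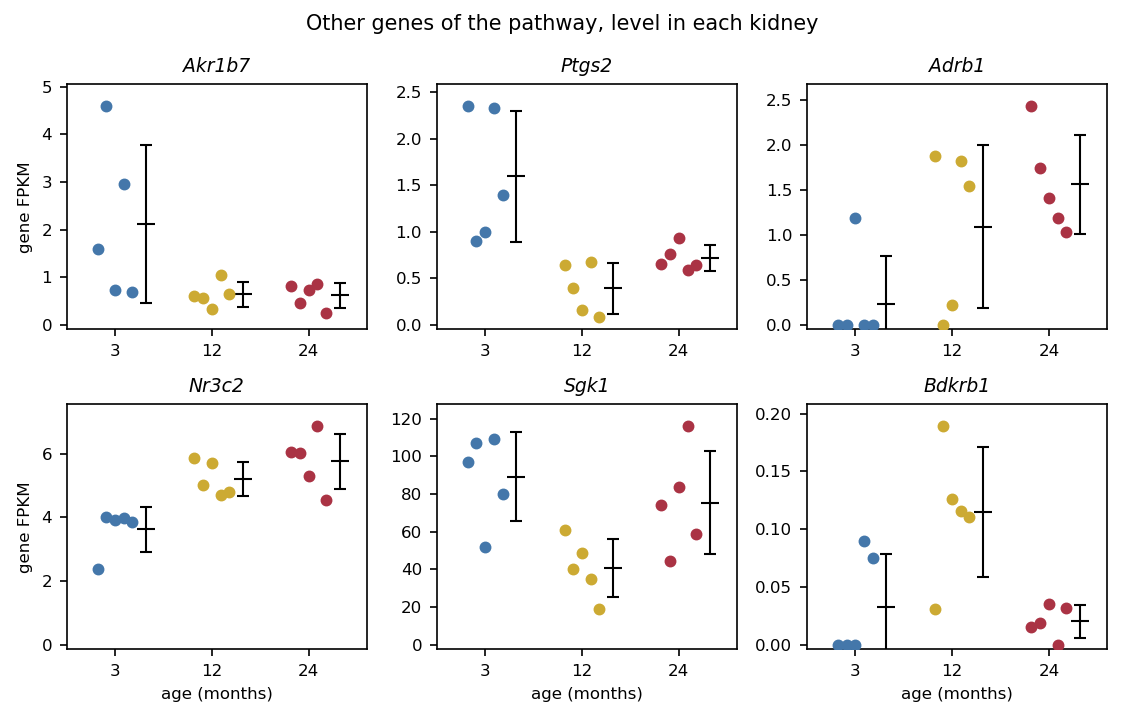
Gene FPKM (vertical axes, linear) of Akr1b7, Ptgs2, Adrb1, Nr3c2, Sgk1 and Bdkrb1 against age in months, 1 point per mouse with the mean and SD of each age as a black bar. Ptgs2 at 12 months (0.0825 to 0.680 FPKM) and Nr3c2 at both later ages do not overlap with the young mice. Of all genes, 4.11% do not overlap between 12 and 3 months and 4.73% between 24 and 3 months.

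The genes whose levels across the 15 mice were most like a member's were sought among 13446 genes of at least 1 FPKM, by Pearson's r of log2(FPKM + 1), as a description without a test. For Ren1 these were Tspan33 (r = 0.923) and Cyp2d26 (r = 0.907), and without the 2 mice farthest from the median Ren1 they were at 0.844 and 0.678. For Agt they were Ppp1r11 (0.930) and Map1lc3b (0.894), for Ace Slco1a1 (0.855) and Gdf15 (0.827), and for Agtr1a Nfatc1 (0.885) and Bgn (0.867). For Enpep they were Prkd3 (0.888) and Apobec1 (0.873), for Mme Epb41l5 (0.804) and Klhl9 (0.794), and for Atp6ap2 Hbp1 (0.830) and Sh3bp4 (0.824). The highest of 13446 values is large by selection, the points share library and age, and no member was named for another.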

How the data were processed

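Per the labels, ribosomal RNA was removed from kidney total RNA and a stranded kit was used, whereas the study's methods describe oligo(dT) beads and speak of pooled RNA; the tables have a column for each mouse. Reads were trimmed (Cutadapt), mapped (Bowtie2, HISAT2; the submitters' processing notes name TopHat, TopHat2 and StringTie) to GRCm38 with Ensembl 88, and assembled. The deposited FPKM values and signal (mean coverage per transcript), made by the authors with StringTie, are not counts. How the authors made the deposited estimated counts of 11929 circular RNAs is not given in the sources used here. They summed to between 6974494 and 9889971 per mouse, were rounded and may include linear reads of the same exons.

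Ages and replicate numbers are those of the labels; titles begin with 3M at all ages. FPKM of transcripts with class code =, c, j or o was summed per gene. Genes above 0 in at least 1 mouse compared were tested with limma 3.58.1 (trend, R 4.3.3) on log2(FPKM + 1), a scale that understates changes of low genes, and Benjamini-Hochberg adjusted over all of them; transcripts likewise. Circular RNAs were kept where 5 or more of the 10 mice had a value above 0, and were tested with edgeR 4.0.16 (quasi-likelihood, TMM) and DESeq2 1.42.0. Single values used exact permutation tests, 2-sided. Without counts, the spread between mice sets the precision. On simulated data for 24 against 3 months, limma called 176 of 200 genes changed by 1.5 (log2) and 19 others among 31755, and edgeR 194 of 200 circular RNAs changed 2-fold and 8 others among 11922. For limma the changed genes were drawn from those with a mean log2(FPKM + 1) above 1, with normal noise of each gene's own spread. The share called therefore does not apply to a single gene as variable as Ren1.

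The members, the pathway and marker lists and the tests were chosen with earlier results of these data known. Named genes were the members, their transcripts of at least 10% of the gene (Enpep's ENSMUST00000170918, the Ace germ cell transcript and Mas1's ENSMUST00000159223 were added after their values were seen), the 2 pathway genes with the smallest p in each comparison, and the 2 genes most like each member. Promoter windows are RefSeq's on GRCm38.p6. Alternatives were another pseudocount, a filter at 1 FPKM, TPM, median-of-ratios scaling, annotated transcripts alone, all 15 mice in one fit and a robust prior. An F test with each mouse's summed gene FPKM as the library covariate was also run, and each mouse was left out in turn. Aligned bases and the number of genes above 0 were not used as covariates.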

Additional observations from a re-analysis of the deposited data

Results flagged for a closer look

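Among 45 sets of 5 mice examined, 3 held a mouse that stood apart from the other 4 by more of the whole range than Dixon's 95% critical value allows, and chance alone gives about 1 in 20. Agtr1a at 12 months had its lowest mouse, replicate 19, at 17.8 FPKM. Adrb1 at 3 months had its highest mouse, replicate 7, at 1.19 FPKM, with the other 4 listed at 0, so that any value above 0 in 1 mouse would have stood apart in this way. Nr3c2 at 3 months had its lowest mouse, replicate 5, at 2.38 FPKM. Of the 27 sets for the members, 1 was of this kind, and the Ren1 value of 177 FPKM in 3-month replicate 6 was not.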

How the results depend on the processing

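Ren1 stayed lower against 3 months with another pseudocount, TPM, median-of-ratios scaling and each mouse left out. In the other alternatives its log2 difference was the same by construction, and only the p-values differed. Limma adjusted p went from 0.0733 to 0.225 for 24 and from 0.0871 to 0.283 for 12 months. The F test gave adjusted p of 0.277 and 0.449, and its covariate-adjusted difference was not computed. No paired analysis was possible because the replicate numbers of the labels are not shared between ages. The genes called at an adjusted p under 0.05 for 24 against 3 months went from 386 to 190 with annotated transcripts alone, 678 with all 15 mice in one fit, 239 with a robust prior and 102 with the F test, and to 109 to 411 with 1 mouse left out. For 12 against 3 months they went from 79 to 48 with median-of-ratios scaling, 27 with annotated transcripts, 299 with all 15 mice, 24 with the robust prior, 9 with the F test, and 12 to 70 with 1 mouse left out. For 24 against 12 months they went from 1 to 3 with a pseudocount of 0.1, to 0 with all 15 mice and with the F test, and to 1 to 7 with 1 mouse left out. Transcripts called went from 24 to 44 with a filter at 1 FPKM for 24 against 3 months, from 6 to 27 for 12 against 3 months and from 7 to 11 for 24 against 12 months with a pseudocount of 0.1, and with 1 mouse left out ranged from 2 to 32, 2 to 25 and 2 to 16. Circular RNAs called went from 791 to 1232 and from 88 to 419 with DESeq2 for 12 against 3 and 24 against 12 months.

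The members at an unadjusted p under 0.05 for 12 against 3 months went from 2 to 1 with median-of-ratios scaling and with the F test, and for 24 against 12 months from 1 to 2 with TPM and 0 with annotated transcripts, where Ace was at -0.20. Required also not to overlap, a setting chosen after seeing the data, they were 1 for 24 against 3 and 0 for 12 against 3 months. With 1 mouse left out they ranged from 1 to 4 for 24 against 3 months (1 without 3-month replicate 7, 24-month replicate 33 or 34), from 1 to 3 for 12 against 3 months (1 without 3-month replicate 8) and from 1 to 2 for 24 against 12 months (2 without 12-month replicate 17 or 19 or 24-month replicate 35).

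The following values changed sign. For 12 against 3 months Ace was at -0.034 with TPM, -0.061 with median-of-ratios scaling and -0.16 with annotated transcripts, and Mme at 0.13 with annotated transcripts. For 24 against 12 months Akr1b7 was at 0.0023 with TPM and circRNA8763 at 0.0034 with DESeq2. With annotated transcripts the share of the leading Ace transcript differed by 0.259, 0.677 and -0.418 percentage points (from -2.25, -5.74 and 3.49) and that of Mme by -2.22, -3.05 and 0.834 (from 8.60, 9.58 and -0.978) for 24 against 3, 12 against 3 and 24 against 12 months. With 1 mouse left out, the log2 difference for 12 against 3 months ranged from -0.054 to 0.11 for Ace, -0.0099 to 0.013 for Agtr2, -0.29 to 0.078 for ENSMUST00000001963 and -0.024 to 0.52 for MSTRG.7116.1. For 24 against 3 months it ranged from -0.0021 to 0.026 for Agtr2 and -0.31 to 0.10 for MSTRG.7116.1. For 24 against 12 months it ranged from -0.035 to 0.11 for Agt, -0.0040 to 0.025 for Agtr2, -0.087 to 0.070 for Akr1b7, -0.13 to 0.21 for Atp6ap2 and -0.11 to 0.27 for Ren1. The cause of these changes was not tested. Without 3-month replicate 7, the only young mouse with Adrb1 above 0, Adrb1 passed for 24 against 3 months (limma adjusted p = 0.0257). The young values left were then all listed at 0 and had no spread, so this smaller p is not read as stronger evidence. Without counts, levels under 1 FPKM cannot be given a counting error.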
